A study of Homo sapiens with 4 samples.

Results

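The interferon pathway was examined as a list of 50 genes, chosen by symbol: the interferon receptors, the kinases and transcription factors that carry the signal, sensors of foreign or misplaced nucleic acid, and genes that interferon induces. All 50 were found among the 60880 genes of the count table. RNA-Seq had been carried out on LNCaP95 cells, a human prostate cancer line derived from LNCaP by long-term androgen depletion (genotype WT, replicates 1 and 2), and on LN95(KO) cells, in which UGT2B17 was targeted by CRISPR (genotype UGT2B17 KO, replicates 3 and 4). The sample labels name LN95 as the line of all 4 libraries, and the paper states that LN95(KO) was made from LNCaP95. The design text of the series instead names LNCaP as the line of the knockout. The fold changes below follow the sample labels and the paper. Both grew in medium with charcoal-stripped serum, which holds little androgen, and received no treatment, so no interferon was added to any culture. How many knockout clones the LN95(KO) libraries stand for was not given in the sources used here, nor whether replicates were separate cultures. P-values therefore measure the spread between these libraries, which may be technical, and the knockout and any difference between clones cannot be told apart. The question was which interferon genes differ where UGT2B17 is knocked out.

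Interferons are secreted proteins that warn cells of infection. Type I interferon binds a receptor made of IFNAR1 and IFNAR2, whose kinases TYK2 and JAK1 activate a transcription factor complex containing STAT2 and IRF9, while interferon gamma binds IFNGR1 and IFNGR2, which use JAK1 and JAK2. The STAT2 and IRF9 complex binds a promoter motif called the interferon-stimulated response element and switches on effector genes that block viral RNA, protein and particles. Cells make interferon when RNA sensors such as IFIH1 signal through MAVS, or when the DNA sensor CGAS signals through STING1. LNCaP cells are known for weak JAK1 signalling.

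The response element is shown first because it was found in most of the effector genes searched. It was searched as GAAANNGAAA on either strand (TTTCNNTTTC on the other) in RefSeq promoter windows of GRCh38.p14 that run from 250 bases before to 50 bases after the start. Of the 50 genes, 38 had a window. The motif was held by 22 of the 38 genes, or 57.9%, against 4.38% of all 27305 genes with a window, and by 3.57% of all 35116 windows. Among effector genes it was found in 21 of 27, and among receptors, kinases, transcription factors and sensors in 1 of 11, the RNA sensor IFIH1. The gamma-activated site, searched as TTCNNNGAA, which reads the same on both strands, was held by 10 of the 38 genes (26.3%) against 9.38% of all genes. A match describes letters in a window and is not a bound site. The first 3 stretches below belong to the called genes with the motif that changed most, in LN95(KO) upward. RSAD2, which was lower, and ISG15, which had nearly equal levels, were added after their values were seen. Each is given 5′ to 3′ on the strand of its gene with the motif in capitals: IFI44 from chr1:78649741-78649788 (plus strand), IFIT3 from chr10:89327811-89327914 (plus), IFITM3 from chr11:320861-320942 (minus), RSAD2 from chr2:6877602-6877671 (plus) and ISG15 from chr1:1013354-1013429 (plus).
IFI44: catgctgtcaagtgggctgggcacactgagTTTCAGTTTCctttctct
IFIT3: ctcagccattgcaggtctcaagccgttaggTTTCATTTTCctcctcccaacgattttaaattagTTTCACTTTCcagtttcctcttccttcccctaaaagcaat
IFITM3: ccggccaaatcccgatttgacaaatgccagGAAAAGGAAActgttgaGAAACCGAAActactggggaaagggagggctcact
RSAD2: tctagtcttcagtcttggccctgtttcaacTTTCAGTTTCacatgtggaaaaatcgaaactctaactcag
ISG15: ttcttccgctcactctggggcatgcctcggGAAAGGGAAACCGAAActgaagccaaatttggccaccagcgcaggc
IFI44 and RSAD2 each held 1 match in the stretches shown, and IFIT3, IFITM3 and ISG15 each held 2. Those of ISG15 overlap and appear as 1 run of capitals. The choice of these 5 genes fixed their directions.

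Gene reads per library numbered between 17330338 and 18813193, and a count of 0 allows up to 3 counts, or 0.163 to 0.169 CPM (the count relative to the TMM-scaled library size). UGT2B17 followed the genotype labels, with 2788 and 2748 counts (LNCaP95) against 21 and 20 (LN95(KO)). The paper describes UGT2B17 mRNA as low in LNCaP cells, so these counts alone cannot tell which line the knockout was made from. The paper gives that line as LNCaP95. All 11 prostate luminal markers were detected, with a summed level of 5026 to 5049 CPM in LNCaP95 and 4565 to 4786 CPM in LN95(KO). Of the 11, 4 were called higher and 2 lower, with log2 fold changes from -1.30 to 4.91. Of 8 leukocyte markers 4 had any read, and their sum did not exceed 0.565 CPM in a library, with CD3E and MS4A1 among those at 0. CD68 was also at 0, but exons of other genes cover it fully, so its reads would not have been counted. Fibroblast markers summed to 31.2 to 32.3 CPM in LNCaP95 and 35.0 to 38.1 CPM in LN95(KO), with DCN at 0. Most of that sum was COL1A1, with means of 28.4 and 33 CPM. PDGFRB was called higher (22 and 18 against 44 and 44 counts). LUM was called lower (24 and 19 against 0 and 0), having passed the count filter only through LNCaP95. Endothelial markers summed to at most 0.491 and 3.18 CPM, with CDH5 at 0. The endothelial difference was that of VWF, called higher with 8 and 8 against 49 and 58 counts, having passed the count filter only through LN95(KO). The part of these marker differences in the values below was not tested.

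Across the pathway, 7 genes passed an adjusted p and a 2-fold criterion together, in both directions. Most of the others that differed did so by less than 2-fold. A filter on low counts kept 40 of the 50 genes for the test. Calls required an adjusted p under 0.05 (edgeR quasi-likelihood test, Benjamini-Hochberg adjustment over all 15626 genes tested) and more than a 2-fold change. Of the 40 genes, 5 were called higher in LN95(KO), namely STING1, IFI44, IFIT3, IFITM3 and OAS3, and 2 lower, RSAD2 and CMPK2. The 7 calls make 17.5% of the genes tested, against 18.0% of all genes; in all, 8.86% of genes were called higher and 9.13% lower. The adjusted p alone was passed by 25 of the 40 genes, 14 of them higher and 11 lower, against 59.8% of all genes (29.8% higher and 30.1% lower). With DESeq2, 15 of the 40 passed, against 36.7% of the 17848 genes to which DESeq2 gave an adjusted p. Of the 25, 10 no longer passed: JAK1, STAT2, IRF3, IFIT1, IFIT5, BST2, HERC6, MX1, DDX60 and RSAD2. The 2 groups of libraries did not overlap in 32 of the 40, against 79.8% of all genes. Interferon genes were thus called at about the rate of any gene in this comparison. Their median log2 fold change was 0.14 (quartiles -0.36 and 0.59) and that of all genes was -0.01 (quartiles -0.37 and 0.37). A two-sided permutation of 2 against 2 libraries cannot give a p below 0.333, so the adjusted p-values rest on the spread that edgeR shares across genes.

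**Figure D1:**
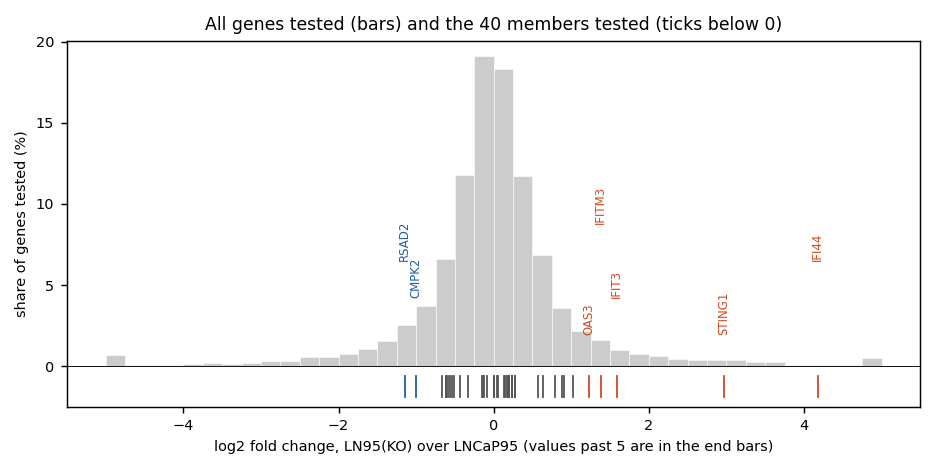
Distribution of log2 fold changes, LN95(KO) over LNCaP95, for all 15626 genes tested (grey bars, share of genes in percent) with the 40 interferon genes tested as ticks below the bars (red called higher, blue called lower, IFI44 at its lower bound of 4.18). Most ticks lie between -1 and 1 like the bulk of all genes, and STING1 and IFI44 lie apart on the right.

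In these bulk libraries, fewer cells expressing a gene and less RNA per cell cannot be told apart. Of the 4 receptor genes, 0 were called, against 18.0% of all genes. The adjusted p alone was passed by 3, against 59.8% of all genes, with IFNAR1 higher and the gamma receptor chains lower. IFNAR1, the first chain of the type I receptor, had 1194 and 1080 counts (LNCaP95) against 1637 and 1673 (LN95(KO)), or 61.8 ± 4.05 and 92.1 ± 0.575 CPM (SD, n = 2 libraries each). Both LN95(KO) libraries lay above both LNCaP95 libraries, with a log2 fold change of 0.57 (adjusted p 2.92e-07 by edgeR, SE 0.06), short of a 2-fold change. The gamma receptor chains lay the other way. IFNGR1, the ligand-binding chain, had 793 and 771 counts (LNCaP95) against 602 and 613 (LN95(KO)), a log2 fold change of -0.33 (adjusted p 0.000532, edgeR). IFNGR2, the signalling chain, had 671 and 705 against 507 and 491, a log2 fold change of -0.43 (adjusted p 0.000108, edgeR). The LN95(KO) libraries were the lower in both genes. IFNAR2, the second chain of the type I receptor, had only 6 and 7 counts (LNCaP95) against 16 and 10 (LN95(KO)). Exons of another annotated gene, the readthrough IFNAR2-IL10RB, cover nearly the whole of its main transcript (93.1% of bases, other genes included), and the counting discards any read shared between genes, so these counts do not give its level. Its log2 fold change was 1.02 with an SE of 0.48 (adjusted p 0.0788, edgeR) and was not called. IFNAR2 passed the count filter only through the LN95(KO) libraries.

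JAK1 had a lower level per length than the other receptor and kinase genes among the 50, IFNAR2 aside. It had 116 and 123 counts (LNCaP95) against 78 and 75 (LN95(KO)), so the LN95(KO) libraries held the lower values. JAK1 (chromosome 1, 65298906 to 65533437 on the minus strand of GRCh37) is the kinase shared by both interferon receptors. Its level was 6.5 ± 0.305 CPM in LNCaP95 and 4.26 ± 0.21 CPM in LN95(KO), and the log2 fold change was -0.61 (adjusted p 0.00314 by edgeR, SE 0.16), which did not pass with DESeq2 (adjusted p 0.0936, within 0.00129 to 1 over the alternatives). Per kilobase of merged exons it stood at 0.493 ± 0.0231 CPM in LNCaP95 and 0.323 ± 0.0159 in LN95(KO), higher than 15.5% and 11.7% of all genes tested. JAK2, the second kinase of the gamma receptor, had 360 and 331 counts against 213 and 230, and the same log2 fold change of -0.61 (adjusted p 5.70e-05 by edgeR, SE 0.10). Neither kinase reached a 2-fold change.

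TYK2, which pairs with JAK1 on the type I receptor, had 1339 and 1446 counts (LNCaP95) against 1312 and 1484 (LN95(KO)), and the groups overlapped (log2 fold change 0.04, SE 0.06, adjusted p 0.634, edgeR). STAT2 had 1074 and 1109 against 1194 and 1205 counts, a log2 fold change of 0.17 (adjusted p 0.0227 by edgeR, SE 0.06). Per kilobase of merged exons the LNCaP95 levels were 8.89 ± 0.531 CPM for TYK2, 6.38 ± 0.179 for STAT2, 3.94 ± 0.258 for IFNAR1, 2.38 ± 0.128 for JAK2 and 0.493 ± 0.0231 for JAK1. Neighbours in that order did not overlap in their libraries. Over the length of the main transcript alone the order was the same and JAK1 stood at 1.28 ± 0.0598 CPM per kilobase.

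**Figure D2:**
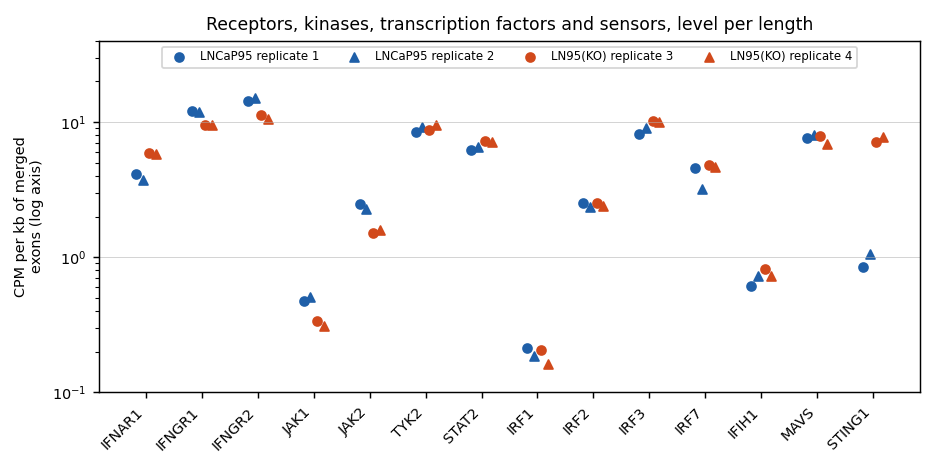
Level of receptors, kinases, STAT2, interferon regulatory factors and sensors as CPM per kilobase of merged exons in each library (log axis, 1 point per library, blue LNCaP95, red LN95(KO)). JAK1 lies between 0.312 and 0.510 in the 4 libraries and TYK2 well above it, and STING1 is the gene whose groups lie farthest apart.

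The interferon regulatory factors were nearly level. IRF3, which turns on the interferon genes after sensing, had 568 and 634 counts (LNCaP95) against 682 and 701 (LN95(KO)), a log2 fold change of 0.23 (adjusted p 0.0137, edgeR). IRF7, which amplifies the interferon response and is itself induced, had 222 and 154 against 221 and 222 counts. Its log2 fold change of 0.27 did not pass (adjusted p 0.114, edgeR), and LNCaP95 replicate 2 stood apart as the lowest library. IRF2, a factor that competes with IRF1, had 315 and 290 against 298 and 292 counts (-0.00), and IRF1 between 36 and 48 counts in every library (-0.12). The groups of both genes overlapped. IRF9, the DNA-binding partner of STAT2, had 4 and 4 counts (LNCaP95) against 7 and 4 (LN95(KO)) and was not tested. As with IFNAR2, exons of other genes cover 93.1% of its main transcript, so its few counts are not a measure of its level.

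STING1 was called higher, the 1 call among the 3 sensors and adaptors of the 50 genes that were tested, against 18.0% of all genes. STING1 (ENSG00000184584.12_3, chromosome 5, 138855118 to 138862520 on the minus strand of GRCh37) encodes the adaptor in the endoplasmic reticulum through which cytosolic DNA triggers interferon production. It had 75 and 93 counts (LNCaP95) against 608 and 678 (LN95(KO)). Both LN95(KO) libraries lay far above both LNCaP95 libraries. The level rose from 4.57 ± 0.717 CPM to 35.8 ± 1.98 CPM, and the log2 fold change was 2.97 (adjusted p 5.78e-13 by edgeR, SE 0.12), or 7.83-fold by pooled scaled counts. Per kilobase of merged exons it went from 0.953 ± 0.149 to 7.45 ± 0.413 CPM, from above 24.5% to above 67.3% of genes tested. No exon of another annotated gene overlaps its main transcript. CGAS, the DNA sensor that makes the messenger which activates STING1, had 1 and 0 counts (LNCaP95) against 0 and 1 (LN95(KO)), all under the limit that a count of 0 allows, so no difference was detectable at this depth. On the RNA-sensing side, IFIH1 had 59 and 70 against 76 and 69 counts (log2 fold change 0.20, adjusted p 0.378, edgeR) and its adaptor MAVS 1668 and 1736 against 1655 and 1488 (-0.08, adjusted p 0.291). The groups of IFIH1 and MAVS overlapped.

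**Figure D3:**
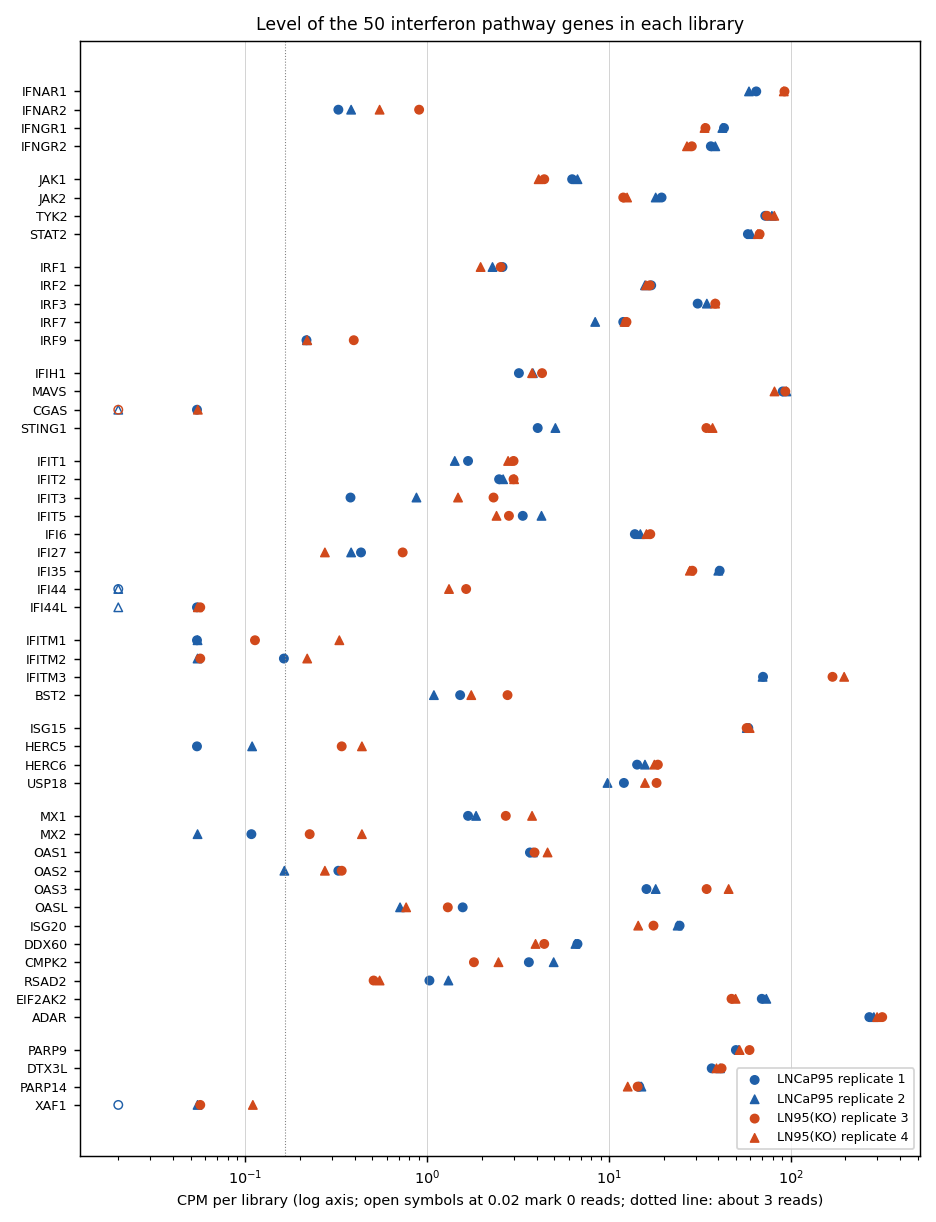
CPM of all 50 interferon genes in each of the 4 libraries on a log axis, ordered by role from receptors (top) to effectors, blue for LNCaP95 and red for LN95(KO), with open symbols at 0.02 for libraries with 0 reads. STING1, IFI44 and IFITM3 show red points far to the right of blue ones, whereas ISG15, TYK2 and PARP9 lie nearly on top of each other.

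Of the IFIT and IFI effector genes, 2 of the 7 tested were called, both higher, against 8.86% of all genes called higher. These 2, IFI44 and IFIT3, entered the test through the LN95(KO) libraries, where they were high, so nothing is drawn from that share. IFI44 (chromosome 1, 79115481 to 79129763, plus strand) encodes an interferon-induced cytoplasmic protein. No read was counted in LNCaP95 (0 and 0), against 29 and 24 in LN95(KO), or 1.48 ± 0.229 CPM, at least 18.1-fold higher against 3 counts over the LNCaP95 group (adjusted p 1.75e-06, edgeR). The gene passed the count filter only through the LN95(KO) libraries. IFI44L, its neighbour and paralog, had at most 1 count in any library.

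The IFIT proteins bind viral RNA and block its translation, and their genes lie side by side on chromosome 10. IFIT3 (91087064 to 91137230) had 7 and 16 counts (LNCaP95) against 41 and 27 (LN95(KO)), or 0.626 ± 0.350 and 1.90 ± 0.592 CPM. All LN95(KO) values lay above the LNCaP95 values, although the replicates of each group also differed from each other. IFIT3 passed the count filter through the LN95(KO) libraries, since only 1 LNCaP95 library reached 10 counts. The log2 fold change was 1.59 (adjusted p 0.00172 by edgeR, SE 0.38). It ranged from 1.11 without LNCaP95 replicate 1 to 2.30 without LNCaP95 replicate 2, and was no longer called without LN95(KO) replicate 3 (1.24, adjusted p 0.0666, within 2.91e-05 to 0.177 over the alternatives). IFIT1 had 31 and 26 against 53 and 51 counts, a log2 fold change of 0.90 (adjusted p 0.00361, edgeR), and passed a 2-fold change without LNCaP95 replicate 1 (1.02). IFIT2 had 46 and 48 against 53 and 55 counts, a log2 fold change of 0.23 (adjusted p 0.354, edgeR). IFIT5 lay the other way, with 62 and 78 against 50 and 44 counts (-0.54, adjusted p 0.0353, edgeR).

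IFI6, a mitochondrial and membrane protein gene, had 257 and 272 counts (LNCaP95) against 299 and 294 (LN95(KO)), a log2 fold change of 0.20 (adjusted p 0.0990, edgeR). IFI35 was lower in LN95(KO), with 751 and 732 against 510 and 510 counts (-0.51, SE 0.07, adjusted p 1.12e-05, edgeR), short of a 2-fold change. IFI27 had between 5 and 13 counts per library and was not tested. Effector genes of the same class thus differed in opposite directions.

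IFITM3 had the highest level of the genes called higher. The IFITM proteins sit in membranes and hinder the entry of enveloped viruses. IFITM3 (chromosome 11, 319676 to 329475, minus strand) had 1302 and 1283 counts (LNCaP95) against 3010 and 3589 (LN95(KO)). The LNCaP95 libraries were close together and the LN95(KO) libraries lay far above them. The level rose from 70.3 ± 0.349 CPM to 183 ± 18.8, a log2 fold change of 1.38 (adjusted p 6.25e-12 by edgeR, SE 0.06). Its close paralogs beside it had few counts, with 1 to 6 counts per library for IFITM1 and 1 to 4 for IFITM2. Exons of other genes cover 52.5% of the main transcript of IFITM1. Near-identical copies can exchange or lose reads in counting, so the split between the 3 genes is uncertain. BST2, a protein that tethers budding virus particles to the cell, had 28 and 20 against 49 and 32 counts, a log2 fold change of 0.79 (adjusted p 0.0302 by edgeR, SE 0.30). It passed a 2-fold change without LNCaP95 replicate 1 (1.04) or LN95(KO) replicate 4 (1.08), and was 0.43 without LN95(KO) replicate 3.

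The ISG15 system tags proteins with a ubiquitin-like modifier. ISG15, the modifier itself and a standard readout of interferon, had 1080 and 1051 counts (LNCaP95) against 1015 and 1086 (LN95(KO)), or 57.9 ± 0.801 and 58.4 ± 1.53 CPM. The groups overlapped (log2 fold change 0.01, SE 0.06, adjusted p 0.878, edgeR), and the counting interval of the pooled ratio ran from 0.949 to 1.07. USP18, which removes ISG15 and dampens the type I receptor, had 224 and 180 against 324 and 289 counts, a log2 fold change of 0.63 (adjusted p 0.000216 by edgeR, SE 0.12). HERC6, a relative of the ISG15 ligase HERC5, had 264 and 290 against 330 and 324 counts (0.27, adjusted p 0.0256, edgeR). HERC5 had 1 and 2 against 6 and 8 counts and was not tested; the pooled ratio was 4.77 with a 95% counting interval of 1.33 to 25.9.

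Among the MX, OAS and other RNA effectors, 10 of 12 were tested, 1 was called higher and 2 lower (8.86% and 9.13% of all genes). OAS3 (chromosome 12, 113375856 to 113414265, plus strand) makes the oligoadenylate messenger that activates RNA cleavage by RNase L. It had 298 and 331 counts (LNCaP95) against 610 and 832 (LN95(KO)), or 17.1 ± 1.36 and 40 ± 7.87 CPM. The LN95(KO) libraries differed from each other but both lay above LNCaP95, with a log2 fold change of 1.23 (adjusted p 3.31e-06 by edgeR, SE 0.12) that was 1.01 without LN95(KO) replicate 4. OAS1 and OAS2 lie on either side of OAS3. OAS1 had 68 and 70 against 69 and 84 counts (0.18, adjusted p 0.410, edgeR), and OAS2 had 3 to 6 counts per library. OASL, an OAS relative without that enzyme activity, had 29 and 13 against 23 and 14 counts with overlapping groups (-0.15).

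The genes called lower were RSAD2 and CMPK2, which start next to each other on opposite strands of chromosome 2. RSAD2 (7005688 to 7038370), which encodes viperin, an enzyme that makes a chain-terminating nucleotide, had 19 and 24 counts (LNCaP95) against 9 and 10 (LN95(KO)), or 1.17 ± 0.199 and 0.528 ± 0.0279 CPM. RSAD2 passed the count filter through the LNCaP95 libraries, since only 1 LN95(KO) library reached 10 counts. The log2 fold change was -1.14 (adjusted p 0.0160 by edgeR, SE 0.38). With DESeq2 the value was -1.15 and no longer passed (adjusted p 0.246, within 0.0129 to 0.937 over the alternatives), and the call was also lost without LNCaP95 replicate 2 (-0.95), LN95(KO) replicate 3 (-1.08) or LN95(KO) replicate 4 (-1.19). CMPK2 (6980701 to 7006766), a mitochondrial nucleotide kinase, had 67 and 91 against 32 and 45 counts, or 4.30 ± 0.946 and 2.14 ± 0.465 CPM. The LN95(KO) libraries lay below LNCaP95 in both genes. The log2 fold change of CMPK2 was -1.0 (adjusted p 0.00116 by edgeR, SE 0.23), at the edge of the 2-fold criterion, and became -0.76 without LNCaP95 replicate 2, -0.80 without LN95(KO) replicate 3 and -0.95 when scaled by library totals. Exons of RSAD2 cover 11.3% of the main transcript of CMPK2, and strand was not used in counting.

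The other RNA effectors tested were not called. MX1, a GTPase that traps viral nucleoproteins, had 31 and 34 against 48 and 69 counts, a log2 fold change of 0.88 (adjusted p 0.00464 by edgeR, SE 0.24), which was 1.10 once LN95(KO) replicate 3 was dropped and 0.62 once replicate 4 was. Exons of other genes cover 8.5% of its main transcript. The overlapping genes include TMPRSS2, which had 511 and 556 counts (LNCaP95) against 4434 and 3701 (LN95(KO)), and the part of such reads in the MX1 counts was not tested. MX2 had 2 and 1 against 4 and 8 counts, a pooled ratio of 4.09 with a counting interval of 1.10 to 22.6. EIF2AK2, the kinase that halts translation on double-stranded RNA, was lower, with 1281 and 1347 against 837 and 909 counts (-0.56, SE 0.06, adjusted p 7.76e-07, edgeR). DDX60, a helicase that aids RNA sensing, had 124 and 120 against 78 and 72 counts (-0.67, adjusted p 0.00158, edgeR), and the nuclease gene ISG20 had 452 and 438 against 312 and 264 (-0.59, adjusted p 7.18e-05, edgeR). ADAR, which edits double-stranded RNA, had the highest counts of the 50 genes, with 5001 and 5253 against 5648 and 5457 (0.15, adjusted p 0.0185, edgeR).

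PARP9 and DTX3L form a complex of an ADP-ribosyltransferase family member and a ubiquitin ligase, and PARP14 is a related enzyme beside them on chromosome 3. Their log2 fold changes were 0.13, 0.06 and -0.14, and 0 of the 3 passed the adjusted p (0.108, 0.531 and 0.269, edgeR), which 59.8% of all genes passed. At an unadjusted p under 0.05 the count was also 0 of 3 (PARP9 0.0714, DTX3L 0.456, PARP14 0.204), and 0 of 3 passed an adjusted p with DESeq2 (0.365 to 0.782). PARP9 passed when scaled by library totals (0.19, adjusted p 0.0281, edgeR) and without LN95(KO) replicate 4 (0.23, adjusted p 0.0145, edgeR), within 0.0145 to 1 over the alternatives. XAF1, a proapoptotic gene, had 0 to 2 counts per library. Exons of other genes cover 74.2% of its main transcript, so these counts do not give its level.

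**Figure D4:**
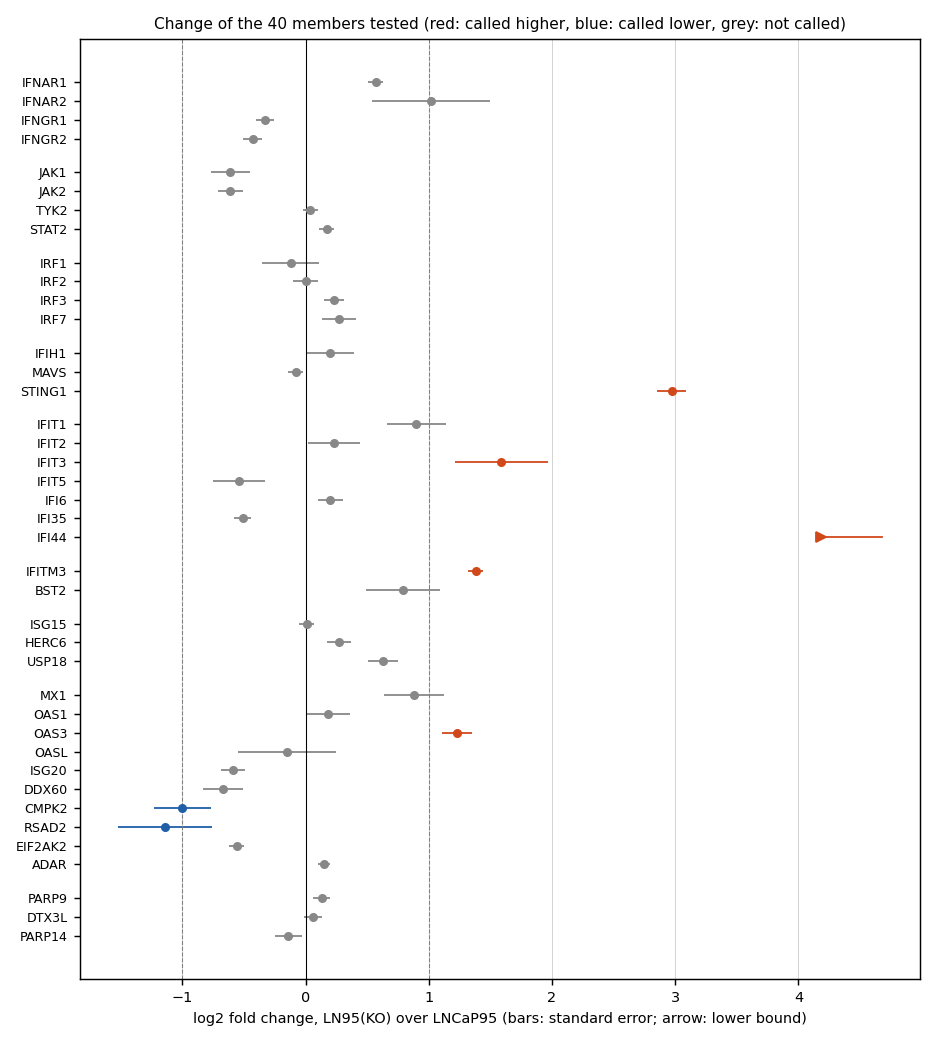
Log2 fold change of each of the 40 genes tested, LN95(KO) over LNCaP95, with standard errors and dashed lines at a 2-fold change, grouped by role (red called higher, blue called lower, grey not called, arrow for the lower bound of IFI44). Red and blue points stand among grey ones within the effector groups, and ISG15, IRF2 and TYK2 lie at 0.

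Position on the chromosome was shared by many of the genes, and neighbours often had different levels and differences. In the IFIT cluster the log2 fold changes in chromosome order were 0.23 for IFIT2, 1.59 for IFIT3, 0.90 for IFIT1 and -0.54 for IFIT5. OAS1 and OAS3 stood at 0.18 and 1.23. CMPK2 and RSAD2 were both lower, and PARP9, DTX3L and PARP14 were all near 0. In the guanylate-binding protein cluster on chromosome 1, taken from the wider pathway list below, GBP3 was lower whereas GBP1 and GBP2 were higher.

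**Figure D5:**
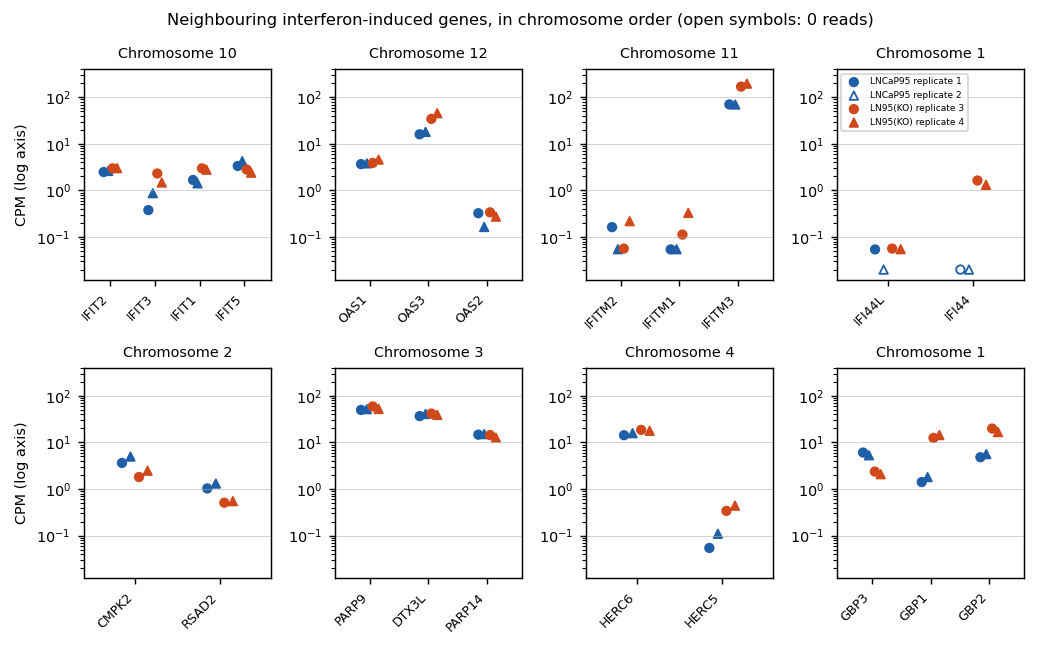
CPM of neighbouring interferon-induced genes in each library (log axis, blue LNCaP95, red LN95(KO), open symbols for 0 reads), 1 panel per cluster in chromosome order. IFITM3 stands beside neighbours with few counts, CMPK2 and RSAD2 are both lower in red, and GBP3 lies opposite to GBP1 and GBP2.

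A further 61 pathway genes were examined, comprising interferons, other receptor chains, negative regulators, sensing factors and more induced genes, and 43 of them were tested. Of the 43, 6 were called higher and 3 lower, or 20.9%, against 18.0% of all genes, with a median log2 fold change of 0.20. The 5 interferon genes on the list, IFNB1, IFNE, IFNK, IFNL1 and IFNG, had 0 reads in all 4 libraries, so neither group had a detectable interferon transcript among them. IFNLR1, the chain specific to lambda interferon, had 5 to 7 counts per library, and IL10RB, its partner, had 1 to 6. Exons of other genes cover 89.2% of the main transcript of IL10RB. TREX1, a DNA-degrading nuclease, was at 0, but exons of ATRIP cover it fully.

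TLR3 changed most in the wider list. It encodes the endosomal receptor for double-stranded RNA and lies on chromosome 4 (186990065 to 187009227, plus strand). TLR3 had 92 and 104 counts (LNCaP95) against 1631 and 1482 (LN95(KO)), or 5.33 ± 0.490 and 86.7 ± 7.74 CPM, a log2 fold change of 4.02 (adjusted p 9.93e-16 by edgeR, SE 0.10). Its adaptor TICAM1 had 479 and 489 against 573 and 578 counts (0.28, adjusted p 0.00421, edgeR). The kinase gene IKBKE, which activates IRF3, was called higher with 28 and 26 against 55 and 63 counts (1.16, SE 0.23, adjusted p 0.000377, edgeR), whereas the related TBK1 had overlapping groups (0.09, adjusted p 0.304, edgeR).

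Regulators and induced genes were called in both directions. SOCS1, an inhibitor of JAK kinases, had 56 and 44 counts (LNCaP95) against 19 and 15 (LN95(KO)) and fell by 1.52 on the log2 scale (adjusted p 0.000171 by edgeR, SE 0.28). PIAS1, an inhibitor of STAT proteins, rose by 1.13 (adjusted p 1.60e-10 by edgeR, SE 0.07), with 649 and 722 against 1449 and 1485 counts. Exons of other genes cover 42.1% of its main transcript, so its counts are uncertain. GBP1, a GTPase that attacks the vacuoles of pathogens, rose from 26 and 33 to 222 and 262 counts (3.06, SE 0.18, adjusted p 1.13e-10, edgeR), and GBP2 from 89 and 103 to 353 and 305 (1.81, SE 0.13, adjusted p 3.24e-09, edgeR). GBP3 fell from 112 and 97 to 42 and 38 counts (-1.35, SE 0.19, adjusted p 1.10e-05, edgeR). These GBP genes are close paralogs, so reads may be shared or lost among them. LY6E, a membrane protein that restricts coronaviruses, rose by 1.29 (adjusted p 8.48e-12 by edgeR, SE 0.06), and UBE2L6, the enzyme that passes ISG15 to its ligases, had 160 and 155 against 46 and 70 counts (-1.41, SE 0.18, adjusted p 2.67e-06, edgeR).

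Among the genes whose promoter window held the response element, 18 were tested, with 4 called higher, 1 lower and 13 not called (all genes: 18.0% called, 8.86% higher and 9.13% lower). Of those called, IFI44 and IFIT3 passed the count filter through the LN95(KO) libraries and RSAD2 through the LNCaP95 libraries. Each was thus tested only because it was high in that group, so nothing is drawn from these shares. The log2 fold changes of the 18 had a median of 0.17, with 12 above and 6 below 0. The IFI44, IFIT3, IFITM3 and OAS3 windows held the motif and the genes were higher in LN95(KO). RSAD2 held it in 1 of 2 windows and was lower, and ISG15, with 2 overlapping matches, stood at 0.01. STING1, TLR3 and GBP1 were not part of that comparison, the first because it had no window in the table and the others because they lie outside the 50 genes.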

How the data were processed

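The authors deposited raw counts per gene, made per their methods with HISAT2 2.1.0 on hg19 and htseq on GENCODE release 29. That strand was not used comes from the names of the deposited files. Each file ended in 5 summary lines, which were left out, and the combined table did not differ from the single files (0 cells). Symbols were matched by Ensembl identifier: 59859 matched and 1021 did not (0.0594% of gene reads). Exons and coordinates came from GENCODE release 44 on GRCh37, a later release of the same build; overlap with other genes was computed on it, and the main transcript is the Ensembl canonical one. Genes were kept by filterByExpr (minimum count 10, total 15) and tested with edgeR 4.0.16 (R 4.3.3; TMM factors, robust quasi-likelihood fit, no covariate); DESeq2 1.42.0, other scalings and filters, and leaving out each library were alternatives. The standard error is the absolute log2 fold change divided by the square root of F. Intervals on count ratios are exact binomial at 95% and, like the floor of 3 counts, cover counting error only. Replicates of a group differed by more than sampling noise (chi-square per degree of freedom 2.31 and 3.31). Named genes were all called members, the route from receptor to nucleus, and called genes of the wider list. Members and lists were chosen with earlier results of these data known. The tests were tested on simulated data. The value of 1 leukocyte marker is not reported here by name.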

Additional observations from a re-analysis of the deposited data

Results flagged for a closer look

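The share of all entries that did not align was higher in LN95(KO), at 8.05% and 7.71% in replicates 3 and 4 against 3.85% and 3.96% in LNCaP95, and comes from the closing lines of each count file, which no comparison used. Its part in the values above was not tested.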

How the results depend on the processing

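No paired analysis was possible because LNCaP95 and LN95(KO) carry different replicate numbers. Of the 7 called interferon genes, 3 (STING1, IFI44 and IFITM3) were called under every alternative, although IFI44 entered the test only through LN95(KO), and 4 lost the call under at least 1. The count called higher was 5, with 3 under glmTreat, which tests against a 2-fold change, 14 without a fold criterion, and 5 to 7 without one library. The count called lower was 2, with 1 under library totals or DESeq2, 0 under glmTreat, 11 without a fold criterion, and 0 to 2 without one library. Without a filter HERC5 was also called higher. In the wider list 6 were higher and 3 lower; 5 were lower without a filter, 1 under glmTreat, and 19 higher and 12 lower without a fold criterion. The 2811 calls over all genes became 1687 under glmTreat and 9349 without a fold criterion; both follow from the criteria. Leaving out 1 library at a time, estimates near 0 changed sign: TYK2 ranged from -0.03 to 0.11, IRF1 from -0.31 to 0.06, IRF2 from -0.06 to 0.05 (0.05 also under library totals), MAVS from -0.18 to 0.02, ISG15 from -0.01 to 0.04 (-0.03 under upper quartile), OASL from -0.61 to 0.53 and DTX3L from -0.02 to 0.13. Other causes were not tested. The length of the canonical transcript, added after seeing the data, raised the levels per length. Counts under about 20 per library limit IFIT3, RSAD2 and the 10 genes not tested. Like IFI44, IFIT3 and IFNAR2 depended on the LN95(KO) libraries to pass the count filter, and RSAD2 depended on the LNCaP95 libraries.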
